A study of Mus musculus with 3 samples.

Results

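Cluster 1 of the single-nucleus ATAC-seq (snATAC-seq) profiles of mouse embryos held 255 of 1879 nuclei, namely every nucleus to which the deposited table gives cluster number 1. Of these, 10 came from the E12.5 library, 125 from E13.5 and 120 from E15.5, where E gives the day of embryonic development. Each stage was 1 library of wild-type (WT) C57BL/6JRj embryos, littermates of those in the spatial maps of the study, so the stages share genotype and strain and differ in age, embryo and library. Nuclei were taken from frozen sections, sorted after staining with the DNA dye 7-AAD, and tagged with the transposase Tn5, which inserts adapters where chromatin is open. A fragment is the stretch of DNA between neighbouring insertions, and each insertion is a cut. Cluster 1 was set against the pooled nuclei of all other clusters except 2 and 4, which are 1195 nuclei of clusters 0, 3 and 5 to 11.

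Mesenchyme is the loose embryonic tissue of migratory cells that fills the space between epithelia and organs and gives rise to dermis, bone, cartilage, tendon and vessel walls. Its cells secrete the collagens and other proteins of the extracellular matrix. Transcription factors such as Twist1, Twist2 and Prrx1 act in keeping these cells motile and undifferentiated, and the receptor encoded by Pdgfra receives growth and migration signals in them.

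All 6 mesenchyme markers (Col1a1, Col1a2, Twist1, Twist2, Prrx1 and Pdgfra) were more accessible in cluster 1 than in each of the other 9 compared clusters in both larger libraries, and the cluster is therefore called mesenchyme-like. Of lists that hold some markers, 19 of 25 matrix genes, 15 of 34 mesenchyme factors and 6 of 10 dermal genes were called higher. Over all genes tested the share was 2.56%. Of 10 cartilage and 5 tendon genes none was called, which at that share is no result about those lists. In cluster 3 the same markers were open at a lower level in both larger libraries, while at E12.5 Twist2 had 95.6 CPM there against 63.8 in cluster 1. For Col1a1 at E15.5, the 10 nuclei of cluster 5 had 141 CPM (105 to 186), above the 101.5 of cluster 3. That interval overlaps the one of cluster 1, at 176 (163 to 190). At 2016 sites far from gene starts, accessibility at E13.5 was at least 4 times that of the other clusters by the rule that chose them. The median fold of these sites was 4.27 at E15.5, a library that took no part in the choice of sites by fold. This value is no test, since the deposited clusters rest on these same nuclei and the sites were found on all libraries.

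The accessibility of a gene was the number of fragments over its body and the 2 kb before its start, scaled to a total of 1000000 such fragments (CPM). Fold is the CPM of cluster 1 over that of the pooled other clusters of the same library, and values given in stage order are those of E12.5, E13.5 and E15.5. A gene was called higher when its fold was at least 1.5 in both larger libraries with at least 20 fragments in cluster 1 in each, and lower when the fold was at most 1/1.5 in both with at least 20 fragments expected. E12.5, with 10 nuclei in cluster 1, took no part in calls. No p-value is given for cluster 1 against other nuclei, because the deposited clusters rest on these same nuclei and each stage is 1 library. Ranges in parentheses are exact 95% intervals that cover counting error only. In such pools, more open nuclei and more fragments per open nucleus cannot be told apart.

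Median depth in cluster 1 was 60804.5, 64094 and 48173.5 unique fragments per nucleus in stage order, with 582743, 8347795 and 6217716 fragments in all. The share of fragments near gene starts was 11.7%, 11.9% and 13.7%, against medians of 9.22, 10.8 and 12.1 percent over the other clusters, where clusters 8, 10 and 11, with 2, 2 and 1 nuclei at E12.5, are left out of every E12.5 median. No barcode of cluster 1 occurred in more than 1 library. In cluster 1, 3 nuclei of E13.5 and 9 of E15.5 shared at least 10% of fragments with another barcode of their library, 10 of them with one of cluster 1 and 2 with one of cluster 4. With 1 barcode kept per such group, 429 genes were called higher and 617 lower, against 428 and 607 in all nuclei, and the 6 markers kept their calls. Doublets were not removed. In cluster 1 nuclei of at least 20000 fragments, 111 of 122 at E13.5 and 1 of 105 at E15.5 had a fragment in a Y-linked gene (Ddx3y, Uty, Kdm5d or Eif2s3y), while in the E12.5 library 0 of 10 did, a count compatible with up to 30%. Stage, embryo sex and library cannot be told apart.

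Cluster 1 made up 6.54% (3.18% to 11.7%) of the nuclei of E12.5, 12.9% (10.8% to 15.2%) of E13.5 and 15.9% (13.3% to 18.7%) of E15.5. The intervals of the larger libraries overlapped. Among nuclei of at least 3000 fragments the shares were 9.90%, 13.9% and 19.2%. The part that the cutting of sections plays in these shares was not tested.

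The following sequences are shown because they are the sites outside gene starts with the highest E13.5 fold around each marker. They are distal regions, 500 bp stretches of clustered cuts over 2 kb from every annotated transcript start, within 50 kb of the start of the marker. Their central 300 bases are printed on the plus strand of mm10, at chr11:94933551-94933850 for Col1a1, chr6:4488501-4488800 for Col1a2, chr5:75148701-75149000 for Pdgfra, chr1:163362101-163362400 for Prrx1, chr12:33967501-33967800 for Twist1 and chr1:91760151-91760450 for Twist2. None overlaps an annotated gene, so all 6 are intergenic. Capitals mark matches, on either strand, to the motifs spelled out with the distal regions near the end: TEAD in Col1a1 and Twist2, the E-box CAGCTG in Col1a2 and Twist1, EBF in Col1a2, Twist2 and Pdgfra, and AP-1 and NFI in Prrx1.
Col1a1: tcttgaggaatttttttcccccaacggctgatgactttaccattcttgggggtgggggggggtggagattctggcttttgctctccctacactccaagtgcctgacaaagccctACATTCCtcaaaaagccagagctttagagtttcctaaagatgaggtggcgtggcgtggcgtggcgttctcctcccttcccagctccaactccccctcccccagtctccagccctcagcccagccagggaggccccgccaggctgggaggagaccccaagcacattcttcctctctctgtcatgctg
Col1a2: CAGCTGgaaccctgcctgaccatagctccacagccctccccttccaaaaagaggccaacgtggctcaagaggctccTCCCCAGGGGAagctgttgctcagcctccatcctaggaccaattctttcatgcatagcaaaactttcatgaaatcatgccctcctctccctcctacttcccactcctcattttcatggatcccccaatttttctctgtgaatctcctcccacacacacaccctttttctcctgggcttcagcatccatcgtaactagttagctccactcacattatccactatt
Pdgfra: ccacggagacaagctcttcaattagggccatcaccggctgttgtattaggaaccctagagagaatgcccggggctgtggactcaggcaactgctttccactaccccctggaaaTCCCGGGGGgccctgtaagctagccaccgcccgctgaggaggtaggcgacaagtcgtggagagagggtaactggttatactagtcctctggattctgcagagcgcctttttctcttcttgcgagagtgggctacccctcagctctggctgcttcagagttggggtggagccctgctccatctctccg
Prrx1: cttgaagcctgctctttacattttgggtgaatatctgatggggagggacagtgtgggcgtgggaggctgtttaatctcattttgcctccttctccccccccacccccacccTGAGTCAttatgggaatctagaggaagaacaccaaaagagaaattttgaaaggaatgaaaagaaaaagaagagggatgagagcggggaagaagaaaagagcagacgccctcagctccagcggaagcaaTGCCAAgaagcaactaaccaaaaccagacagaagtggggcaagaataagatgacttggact
Twist1: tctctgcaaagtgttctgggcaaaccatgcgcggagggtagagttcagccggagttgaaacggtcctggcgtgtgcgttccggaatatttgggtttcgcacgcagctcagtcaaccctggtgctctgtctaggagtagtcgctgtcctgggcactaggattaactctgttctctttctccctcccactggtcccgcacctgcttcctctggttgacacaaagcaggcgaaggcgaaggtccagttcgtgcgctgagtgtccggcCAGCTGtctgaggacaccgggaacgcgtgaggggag
Twist2: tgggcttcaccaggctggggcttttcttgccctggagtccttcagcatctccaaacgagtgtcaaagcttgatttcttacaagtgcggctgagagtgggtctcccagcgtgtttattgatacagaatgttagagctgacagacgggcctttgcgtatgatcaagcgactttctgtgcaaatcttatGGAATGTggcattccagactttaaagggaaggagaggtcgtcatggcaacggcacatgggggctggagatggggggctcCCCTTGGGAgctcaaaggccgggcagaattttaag

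The Col1a1 region, -2524 bp from the gene start (negative is upstream), had 16.7, 28.4 and 37.8 region CPM in cluster 1 against 6.05, 6.12 and 4.91 in the other clusters in stage order, where region CPM is fragments per 1000000 region fragments. Its fold was 2.76 (0.488 to 10.7) at E12.5, from 3 fragments, and 4.63 (3.38 to 6.33) and 7.70 (5.31 to 11.3) in the later libraries. The Col1a2 region, at -16164 bp, had 22.2, 16.9 and 19.6 region CPM in cluster 1 against 5.44, 2.9998 and 3.10, with folds of 5.63 (3.65 to 8.65) and 6.32 (3.86 to 10.5) at the later stages. In both larger libraries these collagen regions were most open in cluster 1 of the 10 clusters, with cluster 3 next.

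The Pdgfra region, at -3442 bp, had 11.1, 21.1 and 21.4 region CPM in cluster 1 against 8.47, 3.50 and 5.02 in stage order and later folds of 6.03 (4.08 to 8.91) and 4.27 (2.79 to 6.53). The Prrx1 region, at -48540 bp, had 0, 11.1 and 11.4 region CPM in cluster 1 against 1.81, 1.19 and 1.39 and later folds of 9.37 (5.08 to 17.7) and 8.20 (4.04 to 17.5). Both were again highest in cluster 1 of the 10 clusters in both larger libraries, and the Prrx1 region had no cluster 1 fragment at E12.5. The regions of Twist1, at 9979 bp, and Twist2, at -41161 bp, missed the fold of 4: the Twist1 region had folds of 2.46 (1.38 to 4.20) and 1.10 (0.464 to 2.33) and the Twist2 region 2.57 (1.51 to 4.25) and 1.35 (0.746 to 2.32) at E13.5 and E15.5. For these regions the E15.5 intervals include 1, so a difference was not detectable there. In the Twist1 region cluster 1 ranked 1 of the 10 clusters at E13.5 and 3 at E15.5. There cluster 7 had 8.20 region CPM against 4.10 in cluster 1. In the Twist2 region cluster 1 ranked 2 and 3. The highest were cluster 7 at E13.5, with 11.5 against 8.82, and cluster 6 at E15.5, with 13.9 against 8.20. Regions within 50 kb were tested if they had at least 20 cluster 1 fragments at E13.5. Of these, 1 of 7 was called for Col1a1, 4 of 5 for Col1a2, 2 of 2 for Prrx1 and 1 of 3 for Pdgfra. For Twist1 0 of 1 and for Twist2 0 of 2 were called. Over all tested distal regions the share was 18.4%, and most of these numbers are too small to set against it.

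Twist1, a basic helix-loop-helix factor of mesenchyme (chr12:33957671-33959829, plus strand), had the largest fold of the 6 markers in each library. Its accessibility in stage order was 75.4, 49.4 and 55.8 CPM in cluster 1 against 19.2, 15.2 and 14.1 in the other clusters. The folds were 3.92 (2.42 to 6.17), 3.25 (2.78 to 3.79) and 3.95 (3.28 to 4.74), with overlapping intervals. In the 500 bp just before the start, cuts reached 14.2 per 1000000 at E13.5 and 17.5 at E15.5 in cluster 1, against 2.50 and 2.31 in the other clusters. In cluster 1 this bin was the highest within 60 kb either side.

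**Figure D1:**
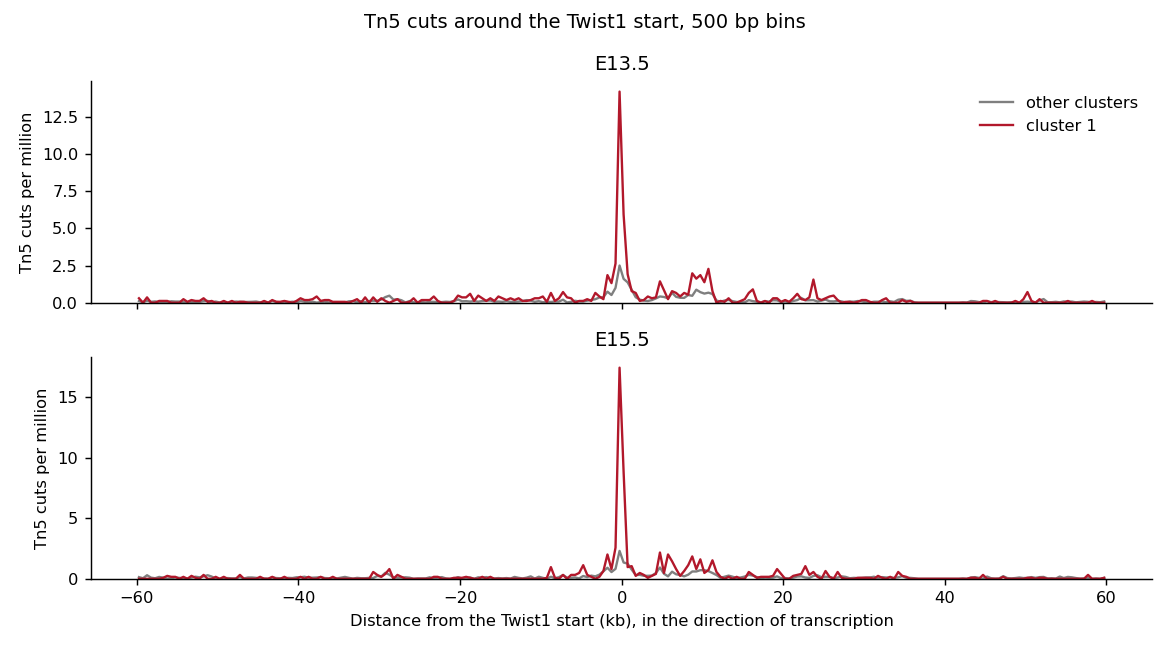
Tn5 cuts, scaled to 1000000 cuts of the nuclei named, in 500 bp bins over 60 kb either side of the Twist1 start at E13.5 (top) and E15.5 (bottom). The red line is cluster 1 and the grey line the pooled other clusters. The peak just before the start is 14.2 and 17.5 in cluster 1, against 2.50 and 2.31.

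Col1a1 and Col1a2 encode both chains of type I collagen, the main fibre of dermis and bone. Col1a1 (chr11:94936224-94953042, plus strand) had 116, 117 and 176 CPM in cluster 1 against 46.1, 51.1 and 53.6 in stage order, with folds of 2.52 (1.75 to 3.56), 2.29 (2.08 to 2.52) and 3.29 (2.98 to 3.63). Col1a2 (chr6:4504814-4541544, plus strand) had 55.1, 79.9 and 114 CPM in cluster 1 against 31.8, 34.3 and 34.4, with folds of 1.73 (1.01 to 2.81), 2.33 (2.07 to 2.61) and 3.31 (2.93 to 3.75). The pools behind these folds differ between stages, since cluster 5 gave 166 of the 684 compared nuclei at E13.5 and 10 of 438 at E15.5. With each other cluster weighted equally, the E13.5 and E15.5 folds were 2.77 and 2.71 for Col1a1 and 2.52 and 2.95 for Col1a2, so that no order of the stages is read from the folds of Col1a1.

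Prrx1, a homeodomain factor of limb and face mesenchyme (chr1:163245119-163313710, minus strand), had 128, 152 and 128 CPM in cluster 1 against 77.4, 55.2 and 55.8 in stage order and folds of 1.65 (1.18 to 2.26), 2.75 (2.53 to 2.998) and 2.30 (2.06 to 2.56). Twist2, a relative of Twist1 that marks dermal precursors (chr1:91801461-91848028, plus strand), had 63.8, 109 and 100.99 CPM in cluster 1 against 58.9, 49.8 and 55.5 and folds of 1.08 (0.667 to 1.68), 2.19 (1.99 to 2.42) and 1.82 (1.62 to 2.05). Pdgfra (chr5:75152292-75198215, plus strand) had 139, 120.3 and 164 CPM in cluster 1 against 107, 61.3 and 68.8 and folds of 1.31 (0.949 to 1.76), 1.96 (1.79 to 2.15) and 2.39 (2.17 to 2.63). For Twist2 and Pdgfra the E12.5 interval includes 1, so that a difference was not detectable with 10 nuclei. Scaling by promoter fragments in place of gene fragments, which moves the median log2 fold of all genes to -0.28 and -0.33, took Twist2 to 1.47 at E15.5, short of a call, and took the E12.5 folds of Twist2 and Pdgfra below 1.

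**Figure D2:**
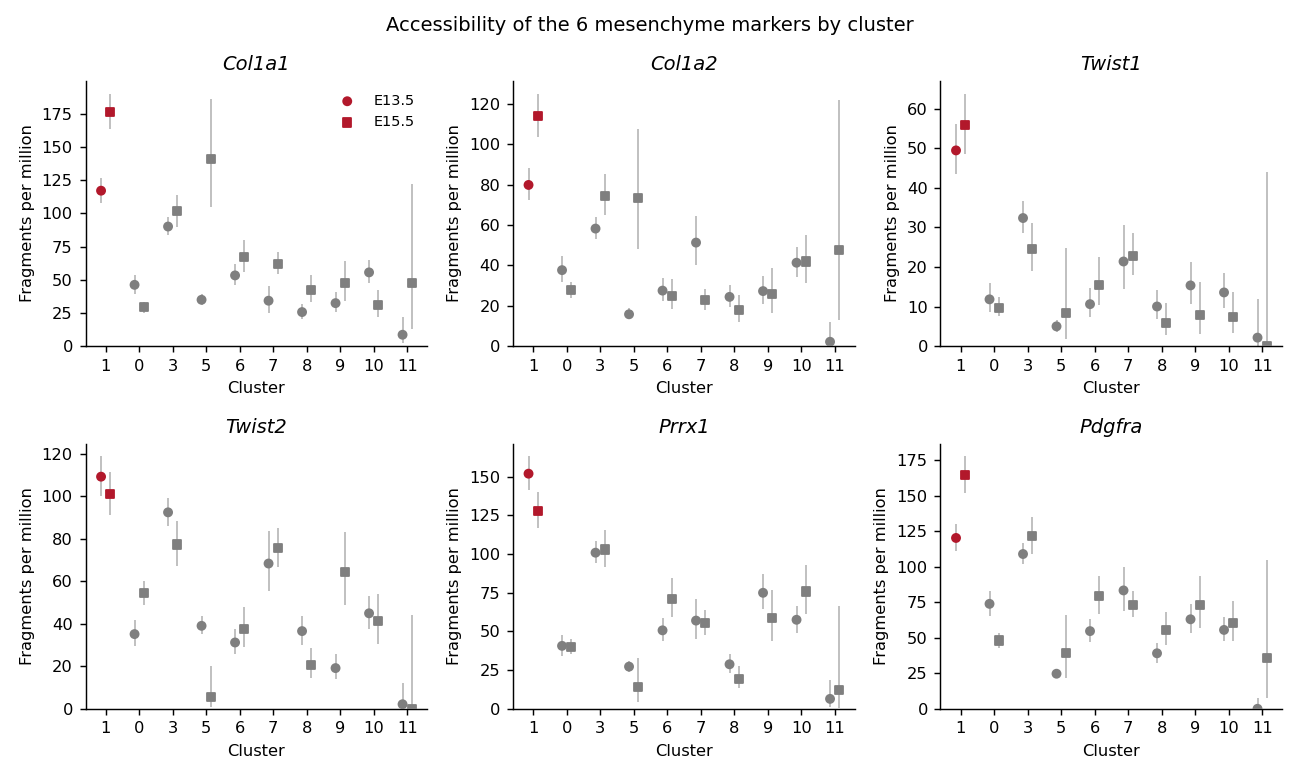
Accessibility of the 6 mesenchyme markers in cluster 1 (red) and each compared cluster (grey), in fragments per 1000000 gene fragments of that cluster, at E13.5 (circles) and E15.5 (squares). Bars are exact 95% Poisson intervals. Cluster 1 is the highest point of each panel in both libraries, and cluster 3 is the next at E13.5, as for Col1a1 with 90.1 against 117 CPM. At E15.5 the next for Col1a1 is cluster 5, with 141 against 176 CPM and overlapping intervals.

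From E13.5 to E15.5 the markers did not change together in cluster 1. The ratio of the later to the earlier CPM was 1.51 (1.35 to 1.69) for Col1a1, 1.43 (1.24 to 1.64) for Col1a2 and 1.37 (1.22 to 1.53) for Pdgfra. It was 1.13 (0.934 to 1.36) for Twist1, 0.924 (0.809 to 1.05) for Twist2 and 0.843 (0.751 to 0.946) for Prrx1. In the other clusters these ratios lay between 0.929 for Twist1 and 1.12 for Pdgfra. In the later library the collagen genes and Pdgfra were thus higher, and Prrx1 lower, by more than counting error.

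Single nuclei of cluster 1 covered a wide range, of which counting error in single nuclei is a part that was not measured. Over 251 nuclei of at least 10000 fragments, the summed accessibility of the 6 markers ran from 0 to 2305 CPM with a median of 630.0, and 1 nucleus had no marker fragment. Cluster 3 had a median of 455 over 208 nuclei, and 188 nuclei of cluster 1 lay above it. The other compared clusters had medians from 0 to 245. The median of cluster 1 was 526, 579.6 and 712 in stage order.

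Over all genes, 428 of 16711 with enough fragments were called higher in cluster 1, which is 2.56%, and 607 of 17173 were called lower, which is 3.53%. This split depends on the scaling, being 516 to 468 with TMM (a trimmed mean over genes) and 139 to 2067 with promoter fragments. Counted over promoters alone it was 498 to 427, and 194 of the 428 genes and 99 of the 607 kept their call there. Among the genes called higher, the 10 whose smaller fold of the larger libraries was highest were Kcne4, Twist1, Rnase10, Col3a1, Tes3-ps, Rtl3, Ccl11, Lum, Lox and Thbs2. Each had its highest level of the 10 clusters in cluster 1 in both libraries. Tes3-ps, Rtl3 and Ccl11 lost their calls over promoters alone and with a minimum of 50 fragments, and Lum over promoters alone.

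Kcne4, a potassium channel subunit gene, had 2.90, 23.6 and 32.1 CPM in cluster 1 against 4.51, 6.60 and 8.48 in stage order, the first from 1 fragment, and folds of 3.58 (2.84 to 4.49) and 3.79 (2.97 to 4.82) in E13.5 and E15.5. Rnase10, a gene of the ribonuclease A family, had 0, 15.4 and 20.8 CPM in cluster 1 against 3.32, 4.78 and 3.98 and folds of 3.22 (2.42 to 4.25) and 5.23 (3.76 to 7.26). Ccl11, which encodes the chemokine eotaxin, had 2.90, 8.21 and 11.3 CPM in cluster 1 against 4.75, 2.88 and 3.87 and folds of 2.85 (1.93 to 4.15) and 2.92 (1.96 to 4.31). All of these were more open in cluster 1 in both larger libraries, and the few fragments at E12.5 leave their level there undetermined. Tes3-ps, whose counted span overlaps Cenpp, and Rtl3, a gene derived from a retrotransposon, had folds of 3.27 (2.26 to 4.68) and 3.14 (1.83 to 5.31) and of 2.86 (1.99 to 4.06) and 2.94 (2.02 to 4.25), respectively.

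Of 25 collagens and other matrix genes tested, 19 were called higher in cluster 1 and 0 lower, with median log2 folds of 0.80 and 0.96 in E13.5 and E15.5, where the medians over all 17296 tested genes were -0.04 and -0.03. Among all genes 2.56% were called higher and 3.53% lower. Col3a1, the type III collagen of loose connective tissue, had 66.7, 67.7 and 82.6 CPM in cluster 1 against 31.1, 21.4 and 20.8 in stage order and later folds of 3.17 (2.78 to 3.61) and 3.98 (3.42 to 4.62). Lox, the enzyme that cross-links collagen and elastin, had 55.1, 34.6 and 58.9 CPM in cluster 1 against 19.2, 12.999 and 14.7 and later folds of 2.66 (2.22 to 3.18) and 4.01 (3.35 to 4.79). Cluster 1 stood above the other clusters for both genes in every library.

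Lum, a small proteoglycan that spaces collagen fibres, had 8.70, 19.8 and 20.3 CPM in cluster 1 against 4.75, 6.69 and 7.27 in stage order and later folds of 2.96 (2.32 to 3.77) and 2.78 (2.08 to 3.70). Thbs2, a matrix glycoprotein, had 20.3, 63.1 and 74.4 CPM in cluster 1 against 24.2, 23.8 and 23.0 and later folds of 2.65 (2.32 to 3.03) and 3.23 (2.77 to 3.76), and was within counting error of the other clusters at E12.5, at 0.838 (0.329 to 1.79). The lowest member was Col5a1, a chain of type V collagen, with 258, 308 and 408 CPM in cluster 1 against 273, 296 and 232 and later folds of 1.04 (0.986 to 1.10) and 1.76 (1.66 to 1.87). Col5a1 was thus raised in the E15.5 library and within counting error of the other clusters at E13.5. With scaling by promoter fragments, 11 of the 25 matrix genes were called higher and 0 lower.

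Of 34 mesenchyme transcription factors, 15 were called higher in cluster 1 and 0 lower, with median log2 folds of 0.74 and 0.69, and 9 were called higher with scaling by promoter fragments. In the main comparison 2.56% of all genes were called higher and 3.53% lower. Besides Twist1 and Prrx1 the leading members were Nfatc4, a calcium-responsive factor, and Snai2, a repressor of epithelial genes. Nfatc4 had 159.6, 132 and 139 CPM in cluster 1 against 59.4, 58.2 and 57.7 in stage order and folds of 2.69 (1.97 to 3.61), 2.28 (2.08 to 2.49) and 2.40 (2.16 to 2.67). Snai2 had 31.9, 22.6 and 30.5 CPM in cluster 1 against 14.96, 9.36 and 13.4 and folds of 2.13 (1.01 to 4.08), 2.42 (1.93 to 3.004) and 2.27 (1.81 to 2.84). Both stood above the other clusters by similar folds in all 3 libraries. Zeb2, a factor also used by neurons, was the lowest member, at 0.657 (0.605 to 0.712) and 0.978 (0.898 to 1.06) in the later libraries.

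Growth factors and receptors had 10 of 21 members called higher and 0 lower, with median log2 folds of 0.65 and 0.66, where 2.56% of all genes were called higher. With scaling by promoter fragments 3 were called higher. Against cluster 3 alone, 0 of the 21 were called, with median log2 folds of 0.14 and 0.13. Bmp4, a bone morphogenetic protein that patterns mesenchyme, had 46.4, 52.7 and 55.5 CPM in cluster 1 against 24.7, 25.001 and 26.5 in stage order and folds of 1.88 (1.04 to 3.20), 2.11 (1.83 to 2.42) and 2.09 (1.77 to 2.46). Wnt5a, a ligand of limb and face outgrowth, had 78.3, 84.5 and 70.7 CPM in cluster 1 against 46.1, 38.1 and 37.8 and folds of 1.70 (1.09 to 2.55), 2.22 (1.98 to 2.48) and 1.87 (1.62 to 2.16). Both ligand genes were more open in cluster 1 in all 3 libraries. Igf1, an insulin-like growth factor, had 63.8, 95.3 and 95.7 CPM in cluster 1 against 80.3, 49.1 and 54.5 and folds of 0.795 (0.492 to 1.22), 1.94 (1.75 to 2.15) and 1.76 (1.56 to 1.98). It was raised in both larger libraries, while at E12.5 the interval includes 1, so that a difference was not detectable there. Grem1, an antagonist of bone morphogenetic proteins and the lowest member, had folds of 1.70 (1.35 to 2.12) and 0.903 (0.645 to 1.24) in the larger libraries.

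Among genes of the tissues that mesenchyme forms, dermal genes were often called higher, where 2.56% of all genes were. Most skeletal genes were not called, but neither were 16261 of all 17296 tested genes, so this is no contrast between tissues. Of 10 dermal fibroblast genes, 6 were called higher and 0 lower, with median log2 folds of 0.97 and 0.67. Dpt, a matrix protein of dermis, had 5.80, 28.8 and 33.7 CPM in cluster 1 against 28.5, 14.8 and 18.0 in stage order and folds of 0.204 (0.0244 to 0.752), 1.95 (1.61 to 2.35) and 1.87 (1.51 to 2.30). Crabp1, a retinoic acid binding protein of early dermal fibroblasts, had 5.80, 38.4 and 27.9 CPM in cluster 1 against 25.6, 14.7 and 15.54 and folds of 0.226 (0.0271 to 0.837), 2.62 (2.21 to 3.10) and 1.79 (1.42 to 2.25). At E12.5, from few fragments, both lay below the other clusters, and later above them. Tbx15, a T-box factor of dermis whose counted span overlaps Wars2, had folds of 1.82 (1.32 to 2.45), 1.77 (1.62 to 1.93) and 1.83 (1.66 to 2.01), and Dpp4, the lowest member, 0.993 (0.868 to 1.13) and 0.913 (0.775 to 1.07) in the larger libraries. Over promoters alone 2 dermal genes were called, at median log2 folds of the list of 1.18 and 0.86. With scaling by promoter fragments 1 was called. Against cluster 3 alone, 0 of the 10 were called.

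No gene of 10 cartilage genes tested was called, and their median log2 folds were 0.21 and -0.14. Col9a1, a cartilage collagen and the lowest member, had 69.6, 46.0 and 38.9 CPM in cluster 1 against 61.5, 47.2 and 62.7 in stage order and later folds of 0.976 (0.847 to 1.12) and 0.621 (0.520 to 0.737). Of 9 osteoblast genes, Dmp1, a bone matrix gene, was called higher at 1.75 (1.303 to 2.31) and 1.55 (1.12 to 2.12), and the lowest, the alkaline phosphatase gene Alpl, had 0.785 (0.713 to 0.864) and 0.834 (0.741 to 0.936). Of 5 tendon genes none was called, and Scx, the defining tendon factor, whose span overlaps Bop1, had 1.42 (1.14 to 1.76) and 0.697 (0.511 to 0.933). Of 9 pericyte and smooth muscle genes, Kcnj8, a potassium channel gene of pericytes, was called higher at 1.71 (1.33 to 2.18) and 2.26 (1.75 to 2.90), while Rgs5, a regulator of G protein signals, had 0.858 (0.691 to 1.06) and 1.02 (0.812 to 1.28). In all, 8 osteoblast, 5 tendon and 8 pericyte genes passed in neither direction, where 2.56% of all genes were called higher and 3.53% lower. Median log2 folds at E13.5 and E15.5 were 0.45 and 0.46 for tendon and 0.27 and 0.42 for osteoblast genes. Pericyte genes had 0.34 and 0.41, and all genes -0.04 and -0.03. With cluster 3 left out of the comparison, 3 tendon, 2 osteoblast, 3 pericyte and 1 cartilage genes were called higher. With scaling by promoter fragments 0 osteoblast and 0 pericyte genes were called higher, so that Dmp1 and Kcnj8 lost their calls.

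**Figure D3:**
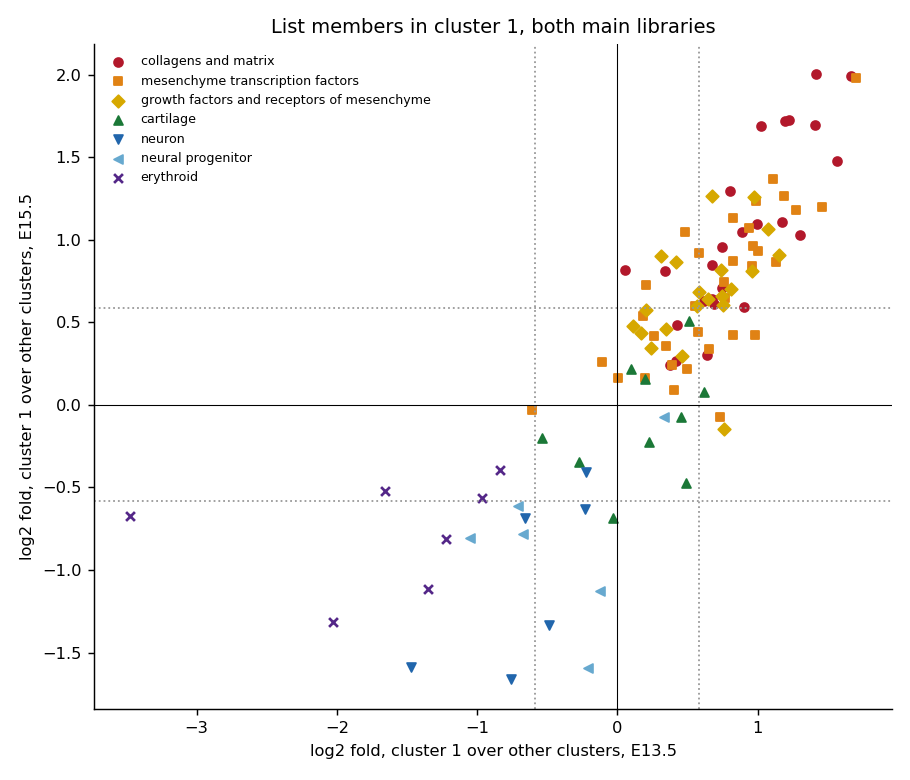
Each point is a gene of the list named in the legend, with its log2 fold of cluster 1 over the other clusters at E13.5 (horizontal) and E15.5 (vertical). Dotted lines mark a fold of 1.5 in either direction. Most matrix genes and mesenchyme factors lie in the upper right, with matrix medians of 0.80 and 0.96, and most neural and erythroid genes lie at the lower left, with neuron medians of -0.57 and -1.01.

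Factors that mark position in the body were raised in part. Of 8 limb factors, 2 were called higher, Tbx5 of the forelimb and heart and Hoxa13 of the distal limb. Tbx5 had 186, 85.3 and 80.0 CPM in cluster 1 against 54.6, 49.6 and 50.8 in stage order and folds of 3.40 (2.54 to 4.50), 1.72 (1.54 to 1.91) and 1.58 (1.38 to 1.79), the largest at E12.5. Hoxa13 had 8.70, 17.4 and 21.3 CPM in cluster 1 against 8.07, 9.68 and 8.37 and later folds of 1.80 (1.40 to 2.28) and 2.54 (1.92 to 3.34). The lowest limb factor was Lhx9, at 1.06 (0.902 to 1.25) and 0.767 (0.627 to 0.931). Of 8 face factors, Barx1 and Pax9, of tooth and jaw mesenchyme, were called higher. Barx1 had 37.7, 23.2 and 25.2 CPM in cluster 1 against 16.6, 12.6 and 12.1 and folds of 2.27 (1.15 to 4.14), 1.84 (1.48 to 2.26) and 2.08 (1.62 to 2.65), Pax9, whose span overlaps Slc25a21, had folds of 2.48 (1.58 to 3.77), 1.53 (1.31 to 1.78) and 2.16 (1.81 to 2.56), and Dlx6, the lowest, 1.15 (0.922 to 1.43) and 0.847 (0.635 to 1.11) in the larger libraries. With scaling by promoter fragments 1 limb and 1 face factor were called higher. Against cluster 3 alone, 0 of the 8 limb and 0 of the 8 face factors were called. Over all genes 2.56% were called higher in the main comparison.

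Of the 39 Hox genes, which set position along the body axis and were added as a list after these data had been seen, 8 were called higher in cluster 1 and 0 lower, with median log2 folds of 0.85 and 0.43. The shares over all genes were 2.56% higher and 3.53% lower, so that 0 lower is no result about this list. With scaling by promoter fragments 3 were called higher, and the medians were 0.60 and 0.13. Against cluster 3 alone, 0 of the 39 were called. Besides Hoxa13 the genes called were led by Hoxa11, whose counted span overlaps Hoxa10, Hoxc6, which overlaps Hoxc5, and Hoxa2, which overlaps Gm28308. Hoxa11 had 17.4, 25.6 and 21.0 CPM in cluster 1 against 9.97, 13.1 and 9.84 in stage order and later folds of 1.96 (1.60 to 2.39) and 2.14 (1.63 to 2.79). Per nucleus, summed Hox accessibility in cluster 1 ran from 132 to 5501 CPM with a median of 1168, against medians of 1034 in cluster 3 and 1258 in cluster 10.

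Of the markers of other cell types none was called higher in cluster 1, and some were called lower. Of 6 neuron genes 3 were called lower, of 6 neural progenitor genes 3 and of 7 erythroid genes 4. In the white blood cell, skeletal muscle and heart lists, 1 gene each was called lower (Laptm5, Myh3 and Myl7), and in the endothelium, epithelium and liver lists 0. The shares over all genes were 2.56% higher and 3.53% lower. In lists this short, none called higher or 0 called lower is therefore no result about the list. The summed neuron list had 252, 200.2 and 181 CPM in cluster 1 and 351, 301 and 372 in the other clusters in stage order, and the summed endothelium list 247, 269 and 260.4 CPM in cluster 1 and 314, 288 and 313.

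Pax6, a factor of neural progenitors, had 43.5, 40.6 and 41.0 CPM in cluster 1 against 65.3, 66.4 and 62.8 in stage order and later folds of 0.612 (0.528 to 0.707) and 0.653 (0.549 to 0.773), and Elavl3, an RNA-binding protein gene of neurons, whose span overlaps Gm49318, had later folds of 0.592 (0.507 to 0.688) and 0.317 (0.251 to 0.395). In the endothelium list the lowest member, Emcn, a surface protein of vessels, had 1.07 (0.906 to 1.26) and 0.703 (0.562 to 0.872), and in the epithelium list Krt15, a basal keratin gene, had 1.22 (0.818 to 1.78) and 0.450 (0.219 to 0.833). The neural genes were thus lower than in the pooled clusters in both larger libraries, while Emcn and Krt15 lay below the other clusters at 1 of these stages. Of 6 neuron genes, 0 were called lower against cluster 3 alone, 0 against cluster 7 and 2 against cluster 10. Their median log2 folds were -0.38 and -0.48 over cluster 3 and 0.04 and 0.07 over cluster 7. Of 5 progenitor genes tested there, 0, 1 and 0 were called lower. The lower level was thus not seen against every cluster.

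Tubb3, a neuronal tubulin gene whose span overlaps Mc1r and Def8, had 2.90, 15.01 and 16.8 CPM in cluster 1 against 39.9, 41.6 and 50.5 in stage order and folds of 0.0727 (0.00183 to 0.411), 0.361 (0.282 to 0.455) and 0.333 (0.254 to 0.429). Gata1, the erythroid master factor, had 0, 2.40 and 4.73 CPM in cluster 1 against 15.9, 26.7 and 7.53 and later folds of 0.0901 (0.0464 to 0.158) and 0.628 (0.362 to 1.03), with a level in the other clusters that was itself lower at E15.5. Adgrg1, an adhesion receptor of neural progenitors, had 55.1, 45.8 and 32.3 CPM in cluster 1 against 132, 131 and 123 and folds of 0.419 (0.2503 to 0.661), 0.351 (0.306 to 0.401) and 0.263 (0.218 to 0.316). These genes were low but not at 0 in cluster 1 in the larger libraries, and Adgrg1 was the lowest there of the 10 clusters. The leading genes called lower were Ackr1, whose span overlaps Cadm3, Rnase6, Cfc1, which overlaps Prss40, Urah, which overlaps Gm45785, Adgrg1, Ncan, Ttc9, Tubb3, Acta1 and Crisp2. Ackr1, Rnase6, Cfc1, Urah and Crisp2 lost their calls over promoters alone and with a minimum of 50 fragments. Adgrg1 and Acta1 lost theirs over promoters alone. Ncan, a proteoglycan of brain matrix, had 31.9, 19.6 and 17.9 CPM in cluster 1 against 87.2, 55.6 and 61.3 and folds of 0.366 (0.181 to 0.663), 0.353 (0.285 to 0.433) and 0.292 (0.225 to 0.373).

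Cluster 3 had the next highest level of the 6 markers per nucleus. Over all genes, 645 were called higher in cluster 1 than in cluster 3 (3.86% of those tested) and 1081 lower (6.18%). Of the 6 markers, Twist1 was called higher against cluster 3, at 1.53 (1.28 to 1.83) and 2.28 (1.73 to 3.03). Col1a1 had folds over cluster 3 of 1.79 (1.22 to 2.59), 1.2999 (1.16 to 1.45) and 1.74 (1.51 to 2.004) in stage order, and Pdgfra 1.08 (0.772 to 1.47), 1.10 (0.993 to 1.23) and 1.35 (1.18 to 1.54). Of 25 matrix genes 0 were called in either direction, and of 34 mesenchyme factors Twist1 and Snai2 were higher. Of 10 dermal genes 0 were called, with median log2 folds over cluster 3 of 0.25 and 0.38 in E13.5 and E15.5. The gene with the highest folds was Cavin3, which encodes a coat protein of caveolae, with 29.0, 27.0 and 34.2 CPM in cluster 1 against 6.75, 9.01 and 10.3 in cluster 3 and later folds of 2.9997 (2.23 to 4.06) and 3.32 (2.21 to 5.16). The lowest folds were those of Vmn2r66, a vomeronasal receptor gene, with 2.90, 0.801 and 2.63 CPM in cluster 1 against 5.63, 6.73 and 14.9 in cluster 3. Cluster 3 was deeper, with medians of 132132, 104625 and 99142.5 fragments, and had a lower share near gene starts, 5.56, 6.49 and 6.87 percent in stage order. The part of depth and of this share in the calls was not tested.

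Against cluster 7, 522 genes were called higher in cluster 1 (3.12% of those tested) and 643 lower (3.86%). Col1a1, Col1a2, Twist1 and Prrx1 of the markers were called higher, Prrx1 at 2.67 (2.11 to 3.40) and 2.31 (1.95 to 2.75), and 10 of 25 matrix genes. Called lower were 4 of 10 cartilage genes (Col9a1, Acan, Matn3 and Cnmd) and 3 of 6 epithelial genes (Epcam, Cdh1 and Krt14). Col9a1 had 69.6, 46.0 and 38.9 CPM in cluster 1 against 36.6, 183 and 74.1 in cluster 7 and later folds of 0.251 (0.210 to 0.302) and 0.526 (0.426 to 0.646).

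Against cluster 10, 1019 genes were called higher (6.1% of those tested) and 1052 lower (6.37%). All 6 markers were called higher, Twist1 at 3.65 (2.61 to 5.21) and 7.68 (3.97 to 17.0), and 10 of 25 matrix genes. All 6 skeletal muscle genes (Myod1, Myf5, Myog, Myh3, Chrna1 and Pax7) were called lower in cluster 1, with median log2 folds of -1.69 and -2.71. Myod1, the master factor of skeletal muscle, had 0, 6.61 and 2.37 CPM in cluster 1 against 179, 40.01 and 45.2 in cluster 10 and later folds of 0.165 (0.109 to 0.244) and 0.0524 (0.0228 to 0.107). Muscle genes thus separated cluster 1 from cluster 10.

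Distal regions numbered 64412 and were found on the pooled nuclei of all libraries. Of 10967 with at least 20 cluster 1 fragments at E13.5, 2016 (18.4%) had a fold of at least 4 there and are called the distal regions of cluster 1. At E15.5 the same regions had a median fold of 4.27, with 1981 above 1 and 1123 at or above 4, where 14.8% of all 10967 were at or above 4. Tested regions that were not called had a median fold of 1.26. These E15.5 values are no test, since the deposited clusters rest on these same nuclei. At E12.5 the called regions had a median fold of 1.84, and 1260 of the 1980 with a value were above 1. The 3 regions just inside the limit had a fold of 4.003 at E13.5, and 3.997 was that of the 3 just outside. Those inside had E15.5 folds of 3.70, 3.17 and 4.78, and those outside 2.13, 2.45 and 9.11.

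The distal regions of cluster 1 were partly open in cluster 3. Their median level in E13.5 and E15.5 was 11.3 and 9.56 region CPM in cluster 1, 5.75 and 4.74 in cluster 3, 2.15 and 1.62 in cluster 10 and 1.44 and 2.19 in cluster 7. In each remaining cluster it was at most 1.29. Of 239 regions that met the same rule for cluster 3, 30 were also called for cluster 1, against 1 of 2631 for cluster 10. The fold of each cluster is over a pool that holds cluster 1, so the rule itself limits such overlaps, and 18.4% of tested regions were called for cluster 1. The called regions lay farther from gene starts than all distal regions, at a median of 18439 bp against 10972 bp, and 33.3% against 47.2% lay inside a protein-coding gene. Of the 428 genes called higher, 120 (28.0%) had a called region within 50 kb of their start, against 5 of the 607 called lower (0.824%) and 963 of all 21593 genes (4.46%). Fragments in a region inside a gene also count toward that gene, so these measures are not independent. The highest number was 7, at Col6a2, a chain of type VI collagen that was named after its value was seen.

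**Figure D4:**
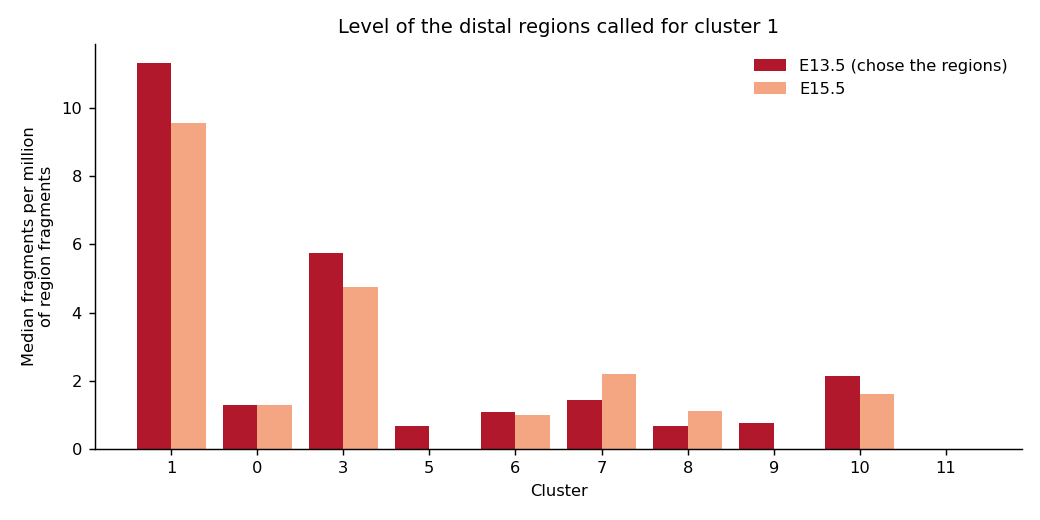
Median level of the 2016 distal regions of cluster 1, in fragments per 1000000 region fragments, in each cluster at E13.5 (dark bars, the library that chose the regions) and E15.5 (light bars). Cluster 1 reaches 11.3 and 9.56, cluster 3 stands at 5.75 and 4.74, and each other cluster is at or below 2.19.

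Motifs are short letter patterns that families of transcription factors prefer. Each was searched on both strands of the 500 bp, matches may overlap, and a match is a description of letters. The patterns were CATCTG for a Twist-type E-box and CATATG for its palindromic form. CAGCTG stood for the E-box of muscle and other factors, ACATTCC for TEAD and AACCACA for RUNX. TAATTA stood for homeodomain factors, CCATTGT for SOX and TTGGCA for NFI. TGTTTAC stood for forkhead factors, AGATAA for GATA and CTTTGAA for TCF/LEF. AP-1 was TGANTCA, EBF was TCCCNNGGG, the SMAD palindrome was GTCTAGAC and SP/KLF was GGGCGGG.

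The letters labelled Twist-type here were more frequent in the distal regions of cluster 1 than in all distal regions. CATCTG was in 54.9% (52.7% to 57.1%) of the 2016 regions, against 41.8% of all 64412. CATATG was in 13.6% (12.2% to 15.2%) against 9.55%. The letters of TEAD, which acts in growth control, were in 13.2% (11.8% to 14.8%) against 8.46%, those of RUNX, the family of the bone factor Runx2, in 16.0% (14.4% to 17.6%) against 10.9%, and those of NFI in 39.4% (37.3% to 41.6%) against 30.9%. In contrast, SOX letters were in 4.76% (3.87% to 5.78%) against 6.86%, TAATTA in 8.98% (7.77% to 10.3%) against 10.9% and SP/KLF letters in 7.14% (6.06% to 8.36%) against 10.1%. Another background is the 8951 tested regions that were not called. Their median content of G and C bases (GC) was 53%, against 48.1% in called regions. There TAATTA was in 7.28% (6.75% to 7.84%), so its direction turned, with intervals that overlap slightly. SOX letters were in 5.13% (4.68% to 5.61%), an interval that overlaps that of called regions. SP/KLF letters were in 19.5%, CATCTG in 38.7%, CATATG in 6.76%, TEAD in 8.96%, RUNX in 10.4% and NFI in 27.4%. Those kept their direction. For CAGCTG the shares of called and of all distal regions were 38.6% (36.5% to 40.8%) and 40.5%, and for AP-1 17.7% (16.0% to 19.4%) and 16.0%.

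In regions called by the same rule for cluster 10, CAGCTG was in 87.0% (85.6% to 88.2%), CATCTG in 50.9% (48.9% to 52.8%), TEAD letters in 13.7% (12.4% to 15.1%) and RUNX letters in 9.16% (8.08% to 10.3%). In those of cluster 0, TAATTA was in 25.5% (22.1% to 29.0%), CATCTG in 34.0% (30.3% to 37.8%) and TEAD letters in 5.50% (3.86% to 7.57%). Cluster 1 therefore lay far below cluster 10 in CAGCTG and above it in RUNX letters, at a TEAD share whose interval overlapped. For CATCTG the interval of cluster 1, 52.7% to 57.1%, also overlapped slightly with that of cluster 10. Among the 297 regions called for cluster 7, TEAD letters were in 15.49% (11.6% to 20.1%) and RUNX letters in 13.47% (9.80% to 17.9%), with intervals that overlap those of cluster 1. RUNX letters were in 13.6% (12.8% to 14.4%) of the regions called for cluster 5. Thus CATCTG, TEAD and RUNX letters were each frequent in regions of another cluster too. Shares were not computed for the regions called for the remaining clusters, such as the 3554 of cluster 6 and the 2035 of cluster 9.

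**Figure D5:**
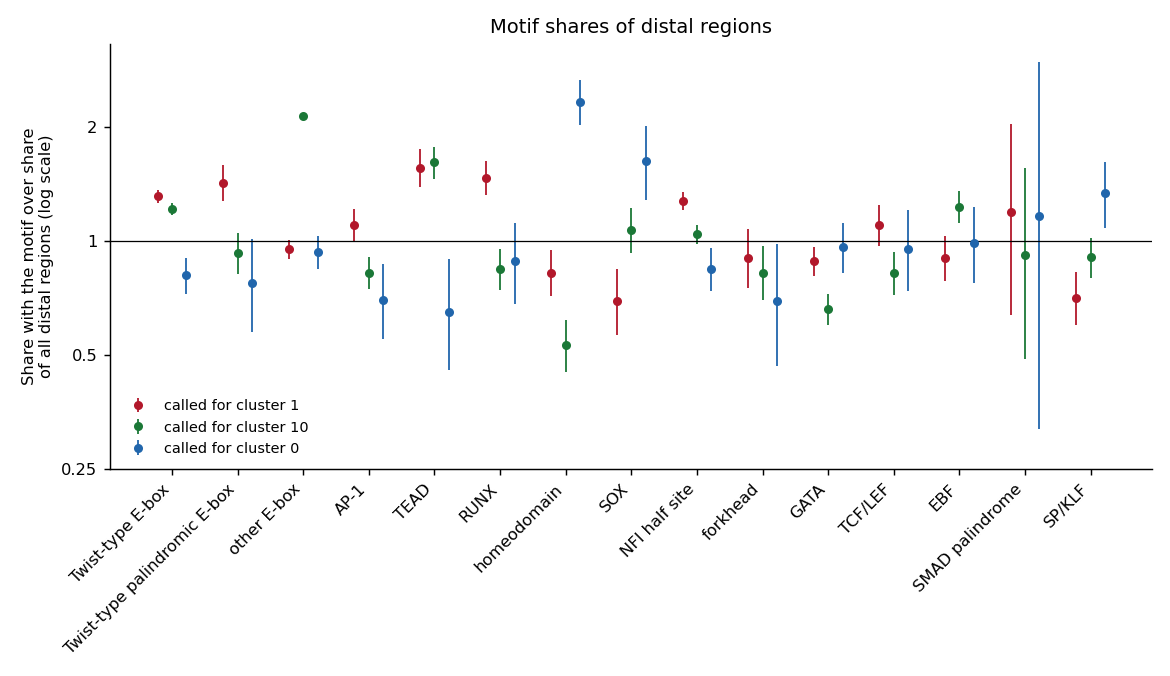
Share of distal regions with each motif over the share of all distal regions, on a log scale, for regions called for cluster 1 (red), cluster 10 (green) and cluster 0 (blue). Bars are exact 95% binomial intervals of the share in called regions. Cluster 1 lies above 1 for both Twist-type E-boxes, TEAD, RUNX and NFI, for example 1.57 for TEAD, while the other E-box reaches 2.15 in cluster 10.

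Base composition differed too, with a median GC content of 48.1% in called and 50.6% in all distal regions. Among regions of 45% to 50% GC (803 called of 19302), CATCTG was in 53.5% and 42.4% of called and all regions, TEAD letters in 13.4% and 9.06%, RUNX letters in 16.2% and 12.3% and NFI letters in 41.1% and 31.8%. There CATATG was in 12.2% and 11.2% and SP/KLF letters in 5.85% and 5.68%. Within this range the shares of CATCTG, TEAD and NFI letters differed about as much as over all regions. Those of RUNX letters differed somewhat less and those of CATATG less again. SP/KLF letters were not less frequent in called regions in this range. Their shares in called and all regions were 1.19% and 1.24% at 35% to 40% GC, 4.11% and 3.36% at 40% to 45% and 9.14% and 9.33% at 50% to 55%. The lower SP/KLF share over all regions was thus not seen within GC ranges. For CATATG the shares in called and all regions were 28.6% and 19.2% at 35% to 40% GC, from 84 called regions, 20.5% and 16.6% at 40% to 45% and 9.87% and 7.93% at 50% to 55%.

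Measures other than which regions were open were compared over the 3 libraries with an exact two-sided sign-flip permutation test, whose smallest p is 0.25. The share of duplicate read pairs in cluster 1 was 64.5%, 61.6% and 60.6% in stage order, above the median of the other clusters by 11.9, 5.39 and 5.25 percentage points (exact p = 0.25, Benjamini-Hochberg adjusted 0.375 over 3 measures). The mitochondrial share was 1.38%, 1.01% and 0.759%, above that median by 0.592, 0.288 and 0.132 points (exact p = 0.25, adjusted 0.375). At E12.5 these medians are over 6 clusters, and the clusters left out had mitochondrial shares of 2.13%, 1.42% and 2.07%, each above cluster 1, and duplicate shares of 63.2%, 58.6% and 67.5%. Both measures lay above these medians in 3 of 3 libraries, and with 3 libraries neither could reach 0.05. The nucleosome-free share was 57.9%, 65.0% and 63.6%, and its mean difference was -0.345 ± 0.940 points (SD, n = 3 libraries, exact p = 0.5).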

How the data were processed

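Cluster number and stage of each nucleus came from the deposited table, whose counts of read pairs and fragments per nucleus were made by the authors; 17 of its columns were not used. Per the file headers, the deposited fragment files, which list unique fragments with the count of read pairs behind each, were made with Cell Ranger ATAC 2.0.0 on mm10, a tool that shifts fragment ends to the Tn5 insertion. The submitters' processing notes also name Seurat 4.1.0 and Signac 1.6.0. The study describes an integration of these nuclei with its spatial maps, from which clusters resulted; whether the deposited numbers come from that step is not stated.

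Fragments were counted over 21593 protein-coding genes of GENCODE vM21, leaving out 91 Pcdh and Ugt genes, 228 over 500 kb and repeated entries of a symbol. Overlapping genes share fragments, and ATAC-seq carries no strand. Regions were 500 bp windows with at least 2 cuts per 1000000 and 30 cuts in 1 cluster. Sequences came from the RefSeq genome GRCm38.p6, the build of mm10. Clusters were compared by fold, with exact intervals for a ratio of counts (exact binomial for shares), and measures per library by an exact permutation test.

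Named genes were, in each list, up to 4 called members with the highest smaller fold and the lowest member, and over all genes the leading 10 in each direction. Other genes named against clusters 3, 7 and 10 lead those comparisons or are called list members. Cluster 1, the gene lists and the motifs were chosen with earlier results of these data known; the Hox list, the limit of 10000 fragments and the regions without cluster 3 were added after seeing the data. Alternatives changed the compared clusters, the scaling (TMM from edgeR 4.0.16), the counted span, the minima, the linked barcodes and the libraries. Python 3.11.15, NumPy 2.4.6, SciPy 1.17.1, pandas 2.3.3, Numba 0.67.0 and Matplotlib 3.10.9 were used.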

Additional observations from a re-analysis of the deposited data

How the results depend on the processing

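Changing the compared clusters, the linked barcodes or the depth of nuclei kept the counts of 428 genes higher and 607 lower within 1.5 times, with all 6 markers called. The genes behind these counts changed in part. With each other cluster weighted equally, 367 of the 428 and 371 of the 607 kept their calls. Without cluster 3 in the comparison, 412 and 500 did. Scaling by promoter fragments gave 139 higher and 2067 lower, without Twist2, and took the E12.5 folds of Twist2 and Pdgfra to 0.744 and 0.897. Over promoters alone Col1a2 lost its call. A minimum of 1 fragment gave 1261 lower, and one of 50 gave 392. Without E13.5 there were 1013 higher and 2065 lower, and without E15.5 1097 and 1754, since 1 library then sufficed for a call. Requiring all 3 libraries gave 111 and 67, without Col1a2, Twist2 and Pdgfra. The share of cluster 1 at E15.5 was 19.2% among nuclei of at least 3000 fragments, against 15.9%. Distal regions numbered 3232 at a fold of 3, 738 at a fold of 6 and 3206 without cluster 3, the last chosen after seeing the data. Against distal regions called for no cluster, the CATCTG ratio was 1.37 instead of 1.31, and the GATA ratio turned from 0.886 to 1.08. In regions chosen at E15.5 the ratios turned to 1.07 for CAGCTG, 1.04 for forkhead and 0.935 for the SMAD palindrome. Where the construction does not show it, the cause was not tested. Depth limits E12.5 most, with 582743 fragments in cluster 1. No paired analysis was possible because no replicate numbers link the stages, each 1 library; the exact test compared clusters within each library.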
